A study of Mus musculus with 10 samples.

Results

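Ovaries of mouse embryos at E18.5 (embryonic days, counted from mating), near the end of gestation, were compared with ovaries at E11.5, when the gonad has only begun to form. The comparison rests on 4 arrays, the 2 titled E18.5 and the 2 titled E11.5, of the 10 arrays of a time course that also sampled 3 days in between in duplicate (E12.5, E14.5, E16.5). Per the labels, total RNA was extracted with Trizol, labelled with biotin in a single cycle and hybridised to one type of oligonucleotide array. Each stage had 2 separate preparations, so p-values measure the spread between 2 preparations a stage. Mouse strain and the way the ovaries were dissected are not given in the sources used here, and no group carried a transgene, deletion or treatment that the labels name. All 45037 probe sets other than controls were considered, and 26890 of them were bright enough on at least 2 of 8 arrays to be tested. Those with 1 gene symbol stood for 13104 genes.

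The tissue carried the defining markers of the fetal ovary. Foxl2, the transcription factor of pregranulosa cells, read 123 and 148 at E11.5 and 467 and 463 at E18.5. Wnt4, Fst, Rspo1, Gata4 and Wt1 of the gonadal soma and Dazl and Ddx4 of germ cells were above background at both stages. Of the testis markers, Sox9, Amh, Dhh and Cyp17a1 were too dim to be tested, Insl3 had no probe set of its own symbol, and Hsd3b1 and Ptgds reached at most 120.3 and 138 on the 4 arrays, rises of 0.93 ± 0.32 and 1.04 ± 0.26 in the test given below. Of 16 genes of the testis soma tested 5 rose, against 13.7% of all genes, and 2 fell, with rises numbering 3 without E11.5 replicate 2 or E18.5 replicate 2 and falls 0 without E11.5 replicate 1 and 1 without E11.5 replicate 2. Tesc, a calcium-binding protein, was at least 7.53-fold higher at E18.5, Aard and Adamts16 rose by 1.41 ± 0.24 and 1.39 ± 0.26, and Cbln4, a secreted cerebellin, was at least 4.22-fold lower. Hsd3b1 lost its call without E11.5 replicate 2, E14.5 replicate 2, E16.5 replicate 1 or either E18.5 array, and Ptgds without E11.5 replicate 2 and without E18.5 replicate 2.

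Between these stages the ovary grows from a thin ridge of coelomic epithelium and mesenchyme into an organ with a surface epithelium, a cortex of germ cell nests wrapped by pregranulosa cells, and a stroma crossed by vessels. Early embryonic tissues run a growth program of chromatin and RNA-binding proteins that favour proliferation, supply it with glucose, lipids, amino acids and nucleotides, and close it down as cells differentiate. Imprinted genes and insulin-like growth factors set much of the pace of fetal growth, and cyclin-dependent kinase inhibitors help cells to leave the cycle. The genes of meiosis and of the oocyte also change over this span and are set aside here.

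Signals are given as scaled signal, each array being brought to a common 75th percentile of 142. Changes are E18.5 minus E11.5 on the scale of log2(scaled signal + 16), with the SE of a limma fit over 8 arrays, all but those of E12.5, and a gene is said to rise or fall where the Benjamini-Hochberg adjusted p over all probe sets was under 0.05. A change of 1 on this scale is 2-fold for bright genes and understates the fold of dim ones. Where both arrays of the dimmer stage lay within the 95th percentile of unspiked control probe sets, 19.5 to 33.0 on the 8 arrays, only a lower bound of the fold is given. Levels of different probe sets are not compared with each other. The number of arrays limits the precision, and the median SE of a change was 0.272. In whole ovaries, fewer cells of a type and less RNA per cell cannot be told apart.

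Of the probe sets tested 26.8% changed, 3264 upward (12.1%) and 3954 downward (14.7%). By gene, with the brightest probe set standing for it, 1790 rose (13.7% of all genes tested) and 2155 fell (16.4%), and the median change was -4.65e-04. These 2 percentages are the background for every list below. Genes that rose numbered 889 without E18.5 replicate 1 and 928 without E18.5 replicate 2, and genes that fell 1218 and 1403 without those arrays and 1396 without E11.5 replicate 1. Changes of 4-fold or more were seen in 223 genes that rose, 49 of them in the germ cell lists, and in 170 that fell, 11 of them in those lists. The germ cell lists are small: those of meiotic prophase, oocyte, general germ cell and pluripotency genes held 46, 26, 36 and 31 of the 13104 genes tested. By E14.5 the genes that rose had covered a median of 42.9% of their change and by E16.5 71.8%, and those that fell 38.7% and 77.9%. In 831 of the 1790 genes that rose and 1237 of the 2155 that fell, the 4 stage means stood in one order.

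The split between rises and falls depended on the scaling and on brightness. Of the probe sets called, 45.2% were higher at E18.5, against 57.1% with the values as deposited and 26.9% with arrays scaled to a common median, which put the median change of all probe sets at 0.15 and -0.20. The spiked hybridisation controls were 2.24-fold brighter at E18.5 than at E11.5 after scaling. The ratio of the 3' to the 5' probe set of Gapdh, a sign of RNA quality, was 0.755 and 0.778 at E11.5 against 1.28 and 1.06 at E18.5, while that of Actb was 1.89 and 1.61 against 1.60 and 1.66. The probe set of the B1 repeat read 9550.1 and 3869 at E11.5 against 29235 and 25383 at E18.5, and that of 18S ribosomal RNA 869.9 and 244 against 4107 and 2857. The part of these in the results below was not tested. Scaling to equal spiked controls instead, an alternative added after the data were seen, moved the median of all probe sets by -0.98, so that 2.61% of the calls were higher. Every direction below is thus relative to the bulk of the genes on the array. Genes with a mean signal between 500 and 5000 fell in 31.3% of 1982 cases and rose in 11.8%, while of 80 genes over 5000 19 rose and 2 fell. Washing took 3 runs, of which one held both E18.5 arrays and no others and another held all E11.5 arrays, so wash run and stage cannot be told apart. Without E18.5 replicate 1 the probe sets called numbered 3704, and without E18.5 replicate 2 4283.

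**Figure D1:**
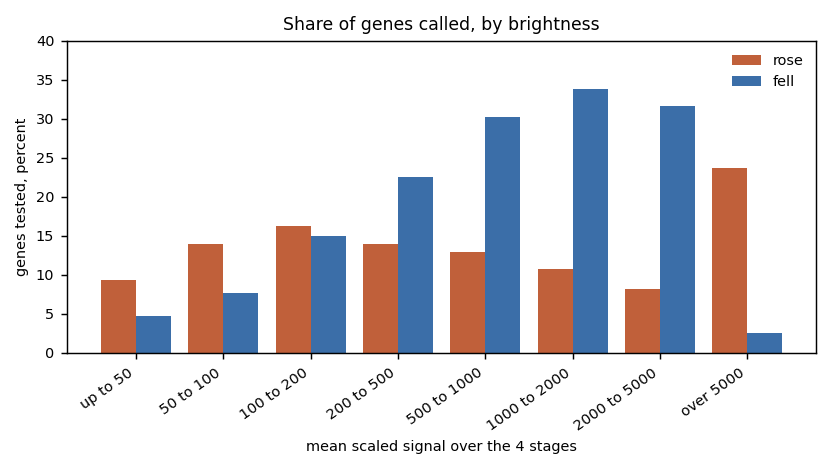
Percent of genes tested that rose (red-brown) or fell (blue) from E11.5 to E18.5, by mean scaled signal over the 4 stages. The share that fell grows from 4.76% of the genes up to 50 to 33.8% of those between 1000 and 2000, and drops to 2.50% above 5000.

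**Figure D2:**
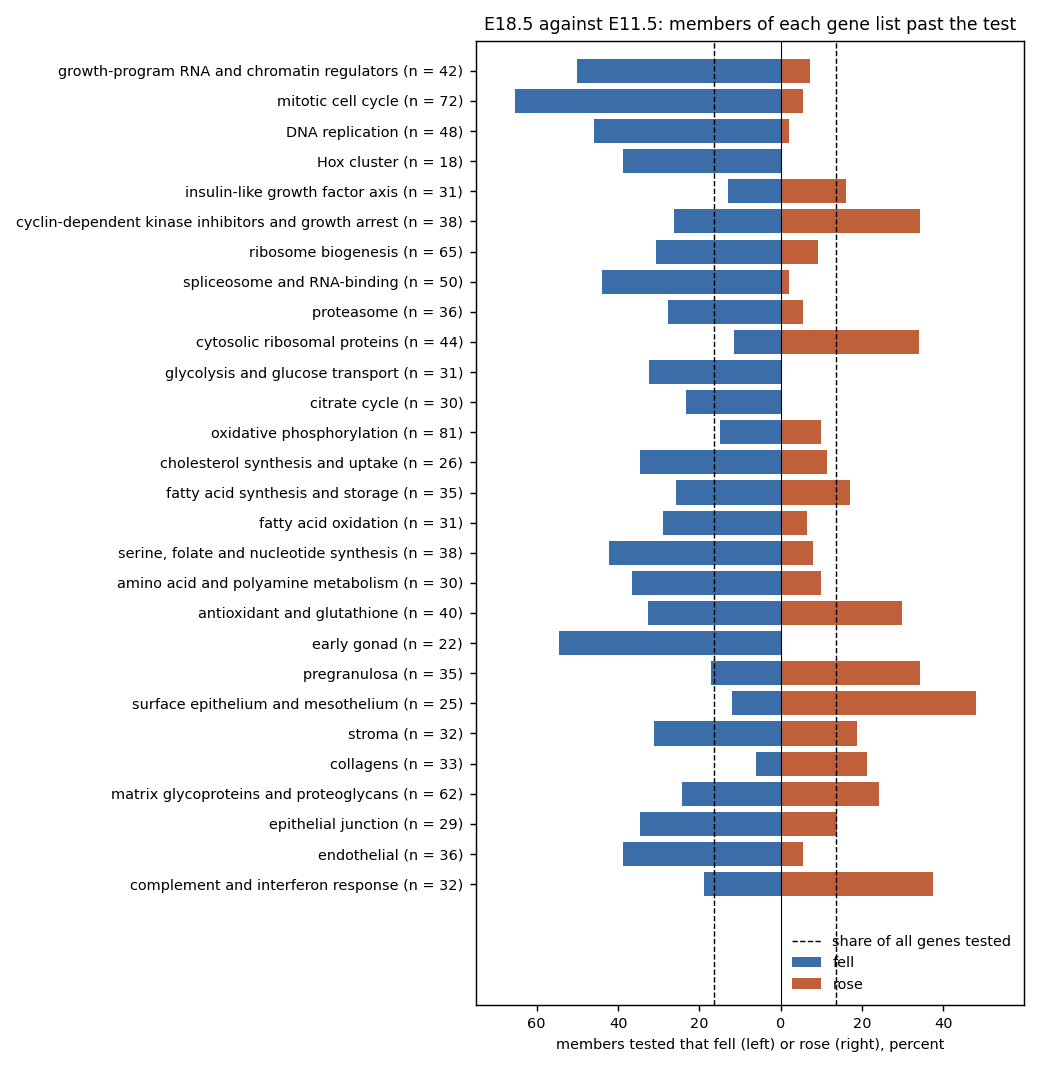
Percent of the tested members of 28 gene lists that fell (bars to the left) or rose (bars to the right), with dashed lines at the shares of all genes tested, 16.4% and 13.7%. The mitotic, early gonad, growth-program, DNA replication and splicing lists reach 44.0% or more on the left, and the surface epithelium list reaches 48.0% on the right.

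Regulators of the embryonic growth program fell far more often than they rose. Of 42 members tested 21 fell and 3 rose, with a median change of -0.64, and of its 16 members with a mean signal between 500 and 5000 8 fell, against the 31.3% of all genes in that range. Hmga2, an architectural chromatin protein of proliferating embryonic cells, read 4479.8 and 4378 at E11.5 and 316 and 246 at E18.5, a fall of 3.91 ± 0.20 (adjusted p = 4.73e-08). Most of its fall came early, with 896 and 1105 on the E14.5 arrays and 286 and 312 on the E16.5 arrays. The RNA-binding protein Igf2bp1, which binds the Igf2 messenger, read 517 and 372 at E11.5 and 42.9 and 44.8 at E18.5 and fell by 2.93 ± 0.24 (adjusted p = 2.84e-06). Lin28a, which blocks maturation of the let-7 microRNAs, read 139 and 128 at E11.5 and 11.9 and 8.36 at E18.5, which is at least 5.42-fold lower (adjusted p = 3.12e-04). In each of these 3 genes both E11.5 arrays were above both E18.5 arrays, by far more than the gap between duplicates. Arrays of the stages did not overlap in 68.1% of all genes tested.

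Nucleosome-binding and DNA-binding members moved the same way. Hmgn5, a nucleosome-binding protein, read 1044 and 898 at E11.5 and 124 and 108 at E18.5 and fell by 2.90 ± 0.25 (adjusted p = 4.14e-06). Sox11, a transcription factor of embryonic progenitors, read 692 and 888 at E11.5 and 78.7 and 132 at E18.5 and fell by 2.76 ± 0.42. Its relative Sox4 read 3336 and 3606 at E11.5 and 902 and 1045 at E18.5 and fell by 1.82 ± 0.26, with an adjusted p of 2.71e-04 that became 0.0921 with the mean over its probe sets. Meis2 and Meis1, homeodomain partners of Hox proteins, fell by 3.90 ± 0.31 and 2.32 ± 0.21. Mycn, a Myc family factor, fell by 1.51 ± 0.21, Ezh2, the histone H3 lysine methyltransferase of the Polycomb complex, by 1.69 ± 0.23, and Uhrf1, which guides maintenance DNA methylation, by 1.30 ± 0.23. The duplicates of no gene named in these sentences overlapped between stages, nor did those of 68.1% of all genes tested.

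The inhibitors of DNA binding did not all go one way. Id1, a dominant negative partner of basic helix-loop-helix factors and a target of bone morphogenetic proteins, read 559 and 598 at E11.5 and 3189 and 3224 at E18.5, a rise of 2.44 ± 0.19 (adjusted p = 1.65e-06), and Id4 rose by 1.21 ± 0.24 (adjusted p = 0.00237). Id2 fell by 0.70 ± 0.20 (adjusted p = 0.0223), and Id3 did not pass, at 0.26 ± 0.21. Id2 lost its call without E11.5 replicate 1 and without either E18.5 array. Id1 was still at 581 and 674 at E14.5 and at 1181 and 1308 at E16.5, so its largest step came last. Dnmt3a, Suz12 and Yap1 of the same list did not pass the test, with changes of 0.35 ± 0.25, 0.45 ± 0.21 and -0.24 ± 0.20.

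Of the Hox genes, which give cells their position along the body axis, 7 of 18 tested fell and 0 rose, with a median of -0.82. Hoxd9 read 795 and 909 at E11.5 and 204 and 159 at E18.5 and fell by 2.14 ± 0.21 (adjusted p = 1.46e-05), Hoxd3 by 2.32 ± 0.27 and Hoxc5 by 2.03 ± 0.25. Hoxb2 ended within background at 7.12 and 5.27, at least 3.40-fold below its 98.9 and 70.5 at E11.5. Hoxa5 did not pass the test, with a change of 0.55 ± 0.38, and its 1 other tested probe set fell.

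In the insulin-like growth factor axis 5 of 31 genes rose and 4 fell, both shares near the background. Igf2, the main fetal growth factor of the family, read 4836 and 5211 at E11.5 and 4173 and 4223 at E18.5, a change of -0.26 ± 0.22 that did not pass (adjusted p = 0.406). Neither did Igf1 and the receptor Igf1r, at 0.07 ± 0.20 and 0.19 ± 0.22. However, the 1 other tested probe set of Igf2 fell, and 2 of the 4 others of Igf1r rose. Igfbp2, which binds and sequesters both ligands, read 448 and 703 at E11.5 and 3198 and 3207 at E18.5 and rose by 2.48 ± 0.28 (adjusted p = 4.37e-05). It had reached that level by E14.5, at 2686 and 3506. Igfbp6, a binding protein with a preference for Igf2, read 57.8 and 77.3 at E11.5 and 278 and 328 at E18.5 and rose by 1.94 ± 0.23, and Foxo3, a transcription factor held in the cytoplasm by insulin signalling, rose by 1.25 ± 0.21. Ghr, the growth hormone receptor, fell by 1.42 ± 0.22, and Grb10, an adaptor that restrains the insulin receptor, read 3435 and 3514 at E11.5 and 1258 and 1230.5 at E18.5 and fell by 1.47 ± 0.20 (adjusted p = 2.00e-04). Of the binding proteins, Igfbp3, Igfbp4 and Igfbp5 did not pass, at 0.03 ± 0.31, 0.10 ± 0.22 and -0.01 ± 0.23. Of the 4 falls of the list 1 was Pdk1, given with glycolysis. In mouse this symbol stands for a pyruvate dehydrogenase kinase and not for the lipid-dependent kinase Pdpk1, so it is no member of the axis. Rises numbered 3 without E11.5 replicate 1, E18.5 replicate 1 or E18.5 replicate 2.

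Genes of the imprinted list, read from 1 parental copy in at least some tissues, fell in 14 of 47 cases and rose in 4. Which copy was read in these ovaries was not measured. Of the 17 members with a mean signal between 500 and 5000 4 fell, or 23.5%, under the 31.3% of all genes of that brightness. Asb4, an adaptor of a ubiquitin ligase, had the largest change of the list: it read 986 and 895 at E11.5 and 26.8 and 33.4 at E18.5, a fall of 4.38 ± 0.27 (adjusted p = 2.96e-07), and was already at 57.3 and 60.9 at E14.5. Mest, known to be read from the paternal copy, went from 4112 and 4559 to 1517 and 1581, a fall of 1.47 ± 0.20. Nnat, a small membrane protein, fell by 1.92 ± 0.33, and Impact, a regulator of the translation kinase Gcn2, by 1.13 ± 0.21, with an adjusted p of 0.00174 that became 0.0894 with the mean over its probe sets. Copg2, a coat protein of secretory vesicles, rose by 1.66 ± 0.23, and Dcn, described with the matrix, by 1.43 ± 0.21. Peg3, a zinc finger protein, read 6579.8 and 6425 at E11.5 and 5497 and 5708 at E18.5, and its change of -0.21 ± 0.23 did not pass. Falls numbered 9 without E11.5 replicate 2, 7 without E18.5 replicate 1 and 6 without E18.5 replicate 2, and rises 2 without E18.5 replicate 1.

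**Figure D3:**
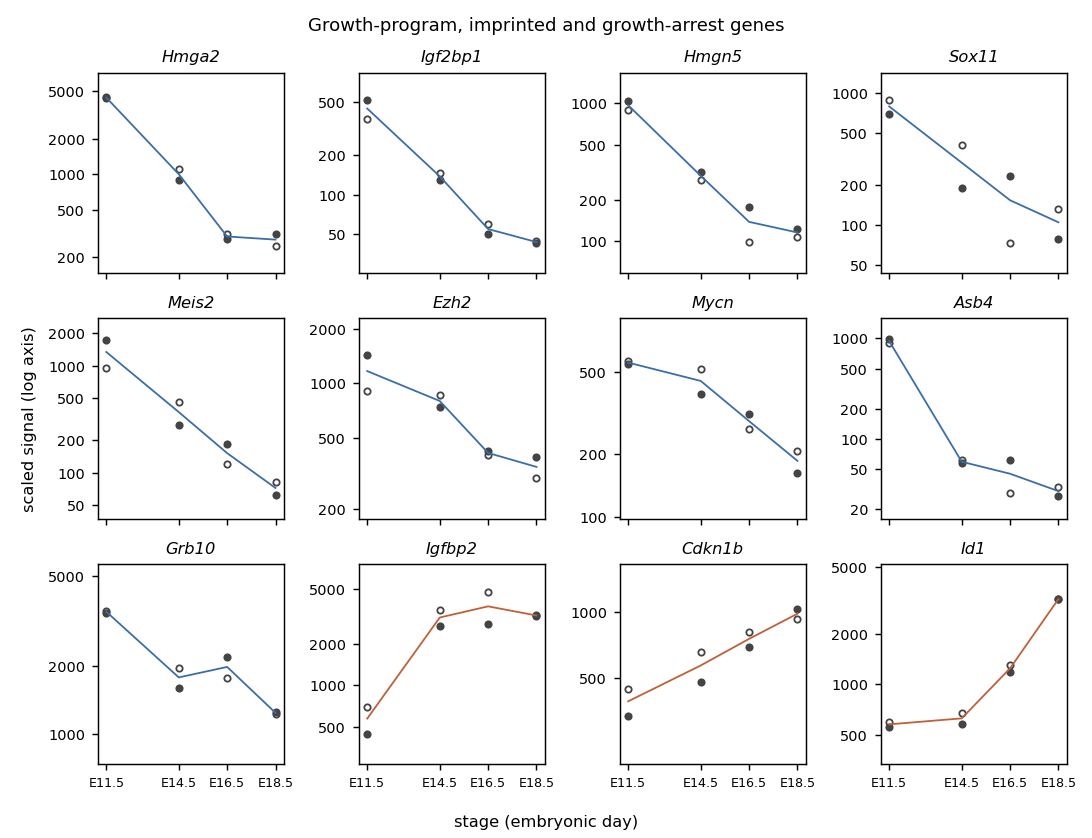
Scaled signal (log axis) by stage of 12 genes of the growth program, the imprinted genes and growth arrest; each circle is 1 array (filled for replicate 1, open for replicate 2) and the line joins the stage means, red-brown for a rise and blue for a fall. Hmga2 and Asb4 drop most between E11.5 and E14.5, Igfbp2 rises by E14.5, and Id1 rises last.

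Mitosis genes fell more often than any other list of over 30 members, 47 of 72 with a median of -0.91, and 4 rose. Cdc20, the activator of the anaphase-promoting complex, read 2442 and 1154 at E11.5 and 208 and 332 at E18.5 and fell by 2.60 ± 0.31 (adjusted p = 6.32e-05). Ncapd2, a condensin subunit that compacts chromosomes, read 656 and 642 at E11.5 and 113 and 87.5 at E18.5 and fell by 2.53 ± 0.25, and Kif22, a chromosome-bound kinesin, fell by 2.02 ± 0.28. Cdk6, a kinase of the G1 phase, went the other way, from 195 and 127 to 407 and 389.8, a rise of 1.25 ± 0.27 (adjusted p = 0.00402). Rises in the list numbered 2 without E11.5 replicate 2 or E18.5 replicate 2 and 1 without E18.5 replicate 1.

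Promoters of cell cycle genes are known for a CCAAT box, bound by the factor NF-Y, and for the cell cycle homology region TTTGAA. The 200 bases before the start of transcription were read (RefSeq, build GRCm38.p6, both strands). A gene counted where any of its promoter entries held the letters, so CCAAT and TTTGAA may lie in different entries. Of the 41 mitosis genes that fell and had an entry 29 held CCAAT and 15 TTTGAA, against 36.2% and 9.61% of all 10580 tested genes with an entry. Both were held by 13 of the 41, or 31.7%, against 3.91%. Mitosis genes that did not fall were not counted, so nothing about the fall is read from these shares. The match is of letters only. The promoters of the 3 largest falls that held both are shown, 5′ to 3′ on the strand of the gene and ending at the base before the start, with the motifs on either strand in capitals. That of Cdc20 lies at chr4:118437344-118437543 on the minus strand, that of Ncapd2 at chr6:125191587-125191786 on the minus strand and that of Kif22 at chr7:127042421-127042620 on the minus strand.
Cdc20: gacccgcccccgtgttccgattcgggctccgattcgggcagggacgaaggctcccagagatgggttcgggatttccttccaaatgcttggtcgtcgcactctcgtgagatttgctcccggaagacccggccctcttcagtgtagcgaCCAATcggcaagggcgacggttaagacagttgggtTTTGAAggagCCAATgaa
Ncapd2: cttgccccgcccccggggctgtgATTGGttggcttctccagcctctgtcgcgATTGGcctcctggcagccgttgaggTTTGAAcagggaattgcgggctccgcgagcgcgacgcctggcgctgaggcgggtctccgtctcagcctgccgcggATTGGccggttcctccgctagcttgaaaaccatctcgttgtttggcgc
Kif22: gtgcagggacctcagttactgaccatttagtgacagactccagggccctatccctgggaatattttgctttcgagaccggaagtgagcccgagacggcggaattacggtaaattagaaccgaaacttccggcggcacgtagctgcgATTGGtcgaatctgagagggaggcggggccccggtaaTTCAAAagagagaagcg

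Genes that restrain the cell cycle split. Of 38 members 13 rose and 10 fell. Cdkn1b, the inhibitor p27, read 336 and 447 at E11.5 and 1039 and 935 at E18.5 and rose by 1.31 ± 0.22, with an adjusted p of 7.79e-04 that became 0.0501 with the mean over its probe sets. Cdkn1a, the inhibitor p21, read 369.6 and 431 at E11.5 and 154 and 153 at E18.5 and fell by 1.29 ± 0.20 (adjusted p = 4.07e-04). Gas6, a ligand of the TAM receptor kinases first found in growth-arrested cells, read 202 and 307 at E11.5 and 1046 and 1088 at E18.5 and rose by 2.03 ± 0.21. Gas1, a membrane protein that also binds Hedgehog ligands, read 2031 and 1419 at E11.5 and 542 and 606 at E18.5 and fell by 1.54 ± 0.24, and Gadd45g, a stress-induced growth arrest protein, fell by 2.54 ± 0.23. Ndrg4 rose by 1.90 ± 0.26 and Klf9, a Krüppel-like factor, by 1.38 ± 0.23. Rises numbered 7 without E18.5 replicate 1 or E18.5 replicate 2, and falls 6 without E18.5 replicate 1.

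Genes of glucose uptake and glycolysis passed the test downward only: 10 of 31 members fell and 0 rose. Slc2a3, a glucose transporter of embryonic and neural tissue, read 274 and 375 at E11.5 and 89.8 and 47.2 at E18.5 and fell by 2.04 ± 0.30 (adjusted p = 3.57e-04), and Slc2a1, the general one, read 973 and 589.6 at E11.5 and 315 and 324 at E18.5 and fell by 1.21 ± 0.23 (adjusted p = 0.00177, or 0.127 with the mean over its probe sets). Pdk1, a kinase that inhibits pyruvate dehydrogenase, read 1216 and 707 at E11.5 and 238 and 216 at E18.5 and fell by 1.96 ± 0.26 (adjusted p = 1.65e-04). For all 3 the lower E11.5 array stood above the higher E18.5 array, and arrays of the stages did not overlap in 68.1% of all genes tested.

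Ldhb, the lactate dehydrogenase subunit that favours making pyruvate, read 3639 and 4419.6 at E11.5 and 1311 and 1442 at E18.5, a fall of 1.53 ± 0.20 (adjusted p = 1.24e-04). Hk1, the first enzyme of the path, fell by 1.14 ± 0.22, and Pgk1, further down it, read 8673 and 6564 at E11.5 and 3283 and 3572 at E18.5 and fell by 1.14 ± 0.24, with an adjusted p of 0.00396 that became 0.0592 without E18.5 replicate 1. Ldha and Aldoa of the same path did not pass, at -0.21 ± 0.22 and -0.07 ± 0.22. Falls in the list numbered 5 without E18.5 replicate 1. Of its 8 members with a mean signal between 500 and 5000 3 fell, or 37.5%, close to the 31.3% of all genes of that brightness.

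In the mitochondrion, genes of the citrate cycle passed in 1 direction and those of the respiratory chain in both. Of 30 citrate cycle genes 7 fell and 0 rose, with a median of -0.40, but falls numbered 13 without E11.5 replicate 2 and 3 without E18.5 replicate 1 or E18.5 replicate 2 and 1 gene rose without E11.5 replicate 1. Of the 22 members between 500 and 5000 6 fell, or 27.3%, under the 31.3% of all genes there. Mdh2, the mitochondrial malate dehydrogenase, read 5245 and 3178 at E11.5 and 1339 and 1424 at E18.5 and fell by 1.55 ± 0.27, and Aco1, the cytosolic aconitase and iron sensor, read 1382 and 1086 at E11.5 and 251 and 318 at E18.5 and fell by 2.05 ± 0.31 (adjusted p = 3.80e-04). Among 81 genes of oxidative phosphorylation 8 rose and 12 fell, both shares under those of all genes, as was that of the members between 500 and 5000, where 11 of 66 fell, and the median was 0.06. These counts moved with single arrays and with the scaling: rises numbered 15 without E11.5 replicate 1, 4 without E11.5 replicate 2 or E18.5 replicate 1 and 5 without E18.5 replicate 2, and falls 5 without E11.5 replicate 1, 22 without E11.5 replicate 2 and 2 without E18.5 replicate 1 or E18.5 replicate 2, and with quantile normalization 26 rose. Cycs, the electron carrier cytochrome c, read 5911 and 3405 at E11.5 and 2005 and 1462 at E18.5 and fell by 1.38 ± 0.28, with an adjusted p of 0.00283 that became 0.0518 without E18.5 replicate 2. Atp5e, a small subunit of the ATP synthase, read 1537 and 1307 at E11.5 and 3592 and 3928 at E18.5 and rose by 1.40 ± 0.24.

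Genes of sterol synthesis and uptake fell more often than they rose. Of 26 genes of cholesterol synthesis and uptake 9 fell and 3 rose, and of the 5 between 500 and 5000 2 fell. Sqle, which oxidises squalene on the way to sterols, read 420.0 and 399 at E11.5 and 115 and 121 at E18.5 and fell by 1.66 ± 0.21 (adjusted p = 9.77e-05). Msmo1, a sterol demethylation enzyme, read 479 and 417 at E11.5 and 115 and 142 at E18.5 and fell by 1.68 ± 0.21 (adjusted p = 9.39e-05). Idi1 and Fdps, which build the isoprenoid units upstream, fell by 1.50 ± 0.20 and 1.19 ± 0.20. The arrays of the stages did not overlap in these 4 enzymes, nor in 68.1% of all genes tested.

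Not every step of the sterol path passed. Hmgcs1, at the head of the path, was short of the threshold at -0.39 ± 0.21, although 2 of its 3 other tested probe sets fell, and so was Fdft1, between Fdps and Sqle, at 0.68 ± 0.26. Lpl, the lipase that frees fatty acids from lipoproteins, read 1799 and 1445 at E11.5 and 504 and 534 at E18.5 and fell by 1.61 ± 0.19, and Abca1, a cholesterol exporter, rose by 0.81 ± 0.18, with an adjusted p of 0.00485 that became 0.0508 without E18.5 replicate 1 and 0.0534 without E18.5 replicate 2. Rises in the list numbered 0 without E18.5 replicate 1 and 1 without E18.5 replicate 2.

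Of 35 genes of fatty acid synthesis and storage 9 fell and 6 rose, and of 31 of fatty acid oxidation 9 and 2. The median change was 0.12 for synthesis, where 18 of the 35 changes were above 0, and -0.26 for oxidation. Between 500 and 5000 5 of 8 synthesis genes and 6 of 11 oxidation genes fell. Fabp5, a fatty acid carrier of the cytosol, read 5438 and 2563 at E11.5 and 525 and 573 at E18.5 and fell by 2.73 ± 0.31 (adjusted p = 4.43e-05). Acly, which makes cytosolic acetyl-CoA, read 1322 and 1005 at E11.5 and 482 and 538 at E18.5 and fell by 1.15 ± 0.22, and Elovl6, an elongase, fell by 1.51 ± 0.21. Lpin1, a phosphatidate phosphatase and coactivator, read 42.9 and 27.4 at E11.5 and 151 and 163 at E18.5 and rose by 1.77 ± 0.25 (adjusted p = 2.46e-04). In oxidation, Bdh1, an enzyme of ketone bodies, fell by 1.93 ± 0.33 and Acat1, the mitochondrial thiolase, read 1097 and 849 at E11.5 and 2194 and 2288 at E18.5 and rose by 1.20 ± 0.20. Falls numbered 4 without E11.5 replicate 1 and 5 without E18.5 replicate 1 for synthesis and 4 without E18.5 replicate 1 and 3 without E18.5 replicate 2 for oxidation, and rises 3 without E18.5 replicate 1 or E18.5 replicate 2 for synthesis and 1 without E18.5 replicate 1 for oxidation.

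Genes of nucleotide synthesis fell more often than they rose. In the list of serine, folate and nucleotide synthesis 16 of 38 fell and 3 rose, with a median of -0.59, and of the 14 members between 500 and 5000 7 fell. Rrm2, the cycle-dependent subunit of ribonucleotide reductase, read 3119 and 1695 at E11.5 and 293 and 354 at E18.5 and fell by 2.78 ± 0.27 (adjusted p = 1.48e-05), and its partner Rrm1 by 1.85 ± 0.25. Rrm2b, the subunit used outside S phase, rose by 1.16 ± 0.22, from 90.9 and 107 to 275 and 208 (adjusted p = 0.00224). In salvage, the kinase Dck read 807 and 488 at E11.5 and 157 and 156 at E18.5 and fell by 1.90 ± 0.27. Tk1, the thymidine kinase of S phase, read 356 and 351 at E11.5 and 89.6 and 92.5 at E18.5 and fell by 1.79 ± 0.23. The first enzymes of serine synthesis, Phgdh and Psat1, did not pass, at 0.27 ± 0.23 and -0.28 ± 0.27. Shmt1 rose by 2.22 ± 0.36 on its brightest probe set, but 2 of its 3 other tested probe sets fell, and the mean over its probe sets gave a change of -0.64, so its direction is uncertain.

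In amino acid and polyamine metabolism 11 of 30 genes fell and 3 rose, and of the 9 members between 500 and 5000 3 fell, or 33.3%, close to the 31.3% of all genes there. Asns, which makes asparagine, read 1308 and 1253 at E11.5 and 217 and 228 at E18.5, a fall of 2.44 ± 0.21 (adjusted p = 4.00e-06) in which the means at E14.5 and E16.5, 607 and 331, stood in between. Slc38a4, a transporter of neutral amino acids, read 906 and 677 at E11.5 and 99.2 and 69.9 at E18.5 and fell by 3.01 ± 0.25. Its relative Slc38a2 read 1563 and 1656 at E11.5 and 533 and 449 at E18.5 and fell by 1.69 ± 0.19. Odc1 and Srm, the first steps of polyamine synthesis, fell by 1.35 ± 0.24 and 1.06 ± 0.21. Gatm, the first enzyme of creatine synthesis, was the largest rise, from 25.9 and 32.8 to 311 and 352, 2.94 ± 0.28 (adjusted p = 1.22e-05). Falls in the list numbered 6 without E11.5 replicate 1 or E18.5 replicate 1 and 7 without E18.5 replicate 2, and rises 1 without E18.5 replicate 1.

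The promoter of ASNS is known, from human cells, for a sequence that answers to amino acid shortage. The letters TGATGNAA were found in the mouse promoter on the strand of the gene, 23 bases before the start, within chr6:7693210-7693409 (minus strand, RefSeq, GRCm38.p6). On either strand they were held in the same window by 2.02% of the tested genes with a promoter entry. The window is shown 5′ to 3′ with the match in capitals.
Asns: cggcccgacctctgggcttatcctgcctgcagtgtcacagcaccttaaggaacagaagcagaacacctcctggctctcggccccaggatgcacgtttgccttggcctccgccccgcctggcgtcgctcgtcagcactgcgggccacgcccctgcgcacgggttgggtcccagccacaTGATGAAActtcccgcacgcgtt

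Antioxidant genes changed in both directions: 12 of 40 rose and 13 fell, both shares above the background, and the median was 0.06. Among metal-binding proteins Mt1 read 317 and 362 at E11.5 and 2868 and 2699.5 at E18.5 and rose by 2.98 ± 0.30 (adjusted p = 1.64e-05), and Mt2 read 653 and 549 at E11.5 and 1727 and 2070.0 at E18.5 and rose by 1.63 ± 0.28 (adjusted p = 9.58e-04). The duplicates of E16.5 lay far apart, at 1480.3 and 3375 for Mt1 and 1205 and 2497 for Mt2. Metallothionein promoters are known for metal response elements with the core TGCACNC or TGCGCNC. The 200 bases before the Mt2 start, chr8:94172418-94172617 on the plus strand (RefSeq, GRCm38.p6), held 2 such cores over both strands, shown in capitals. Of the tested genes with a promoter entry 29.7% held at least 1.
Mt2: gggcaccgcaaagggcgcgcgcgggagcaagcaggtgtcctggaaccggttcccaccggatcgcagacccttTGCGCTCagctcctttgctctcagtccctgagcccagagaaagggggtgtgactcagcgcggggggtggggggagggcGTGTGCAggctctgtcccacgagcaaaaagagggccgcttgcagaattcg

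Redox proteins went both ways. Txnip, which binds and inhibits thioredoxin, read 310.2 and 358 at E11.5 and 1528 and 1475 at E18.5 and rose by 2.12 ± 0.21 (adjusted p = 1.44e-05), while Txnrd1, the reductase that recharges thioredoxin, read 978 and 978 at E11.5 and 315 and 327 at E18.5 and fell by 1.56 ± 0.18 (adjusted p = 5.47e-05). Sod1, the cytosolic superoxide dismutase, read 2832 and 2331 at E11.5 and 10090.5 and 9085 at E18.5 and rose by 1.89 ± 0.27. Cat, the catalase that removes the peroxide Sod1 makes, read 1649 and 971 at E11.5 and 387 and 337 at E18.5 and fell by 1.76 ± 0.26. Prdx2, a peroxiredoxin with the same task, read 5233 and 4361 at E11.5 and 1425 and 1504 at E18.5 and fell by 1.70 ± 0.20. The mitochondrial Prdx3 and the lipid peroxidase Gpx4 did not pass, at 0.42 ± 0.19 and 0.06 ± 0.28.

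Glutathione genes also went both ways. Gclm, the modifier subunit of the enzyme that limits glutathione synthesis, read 87.2 and 104 at E11.5 and 410.3 and 436 at E18.5 and rose by 1.98 ± 0.23. Gstm6 and Gstm2, transferases of the mu class, rose by 2.45 ± 0.31 and 1.62 ± 0.21, and Gsto1, of the omega class, read 1554 and 1034 at E11.5 and 134 and 168 at E18.5 and fell by 2.95 ± 0.25 (adjusted p = 3.50e-06). Mu class genes are near-identical in places, so their probe sets may share signal. Falls in the antioxidant list numbered 8 without E11.5 replicate 1, 6 without E18.5 replicate 1 and 7 without E18.5 replicate 2.

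**Figure D4:**
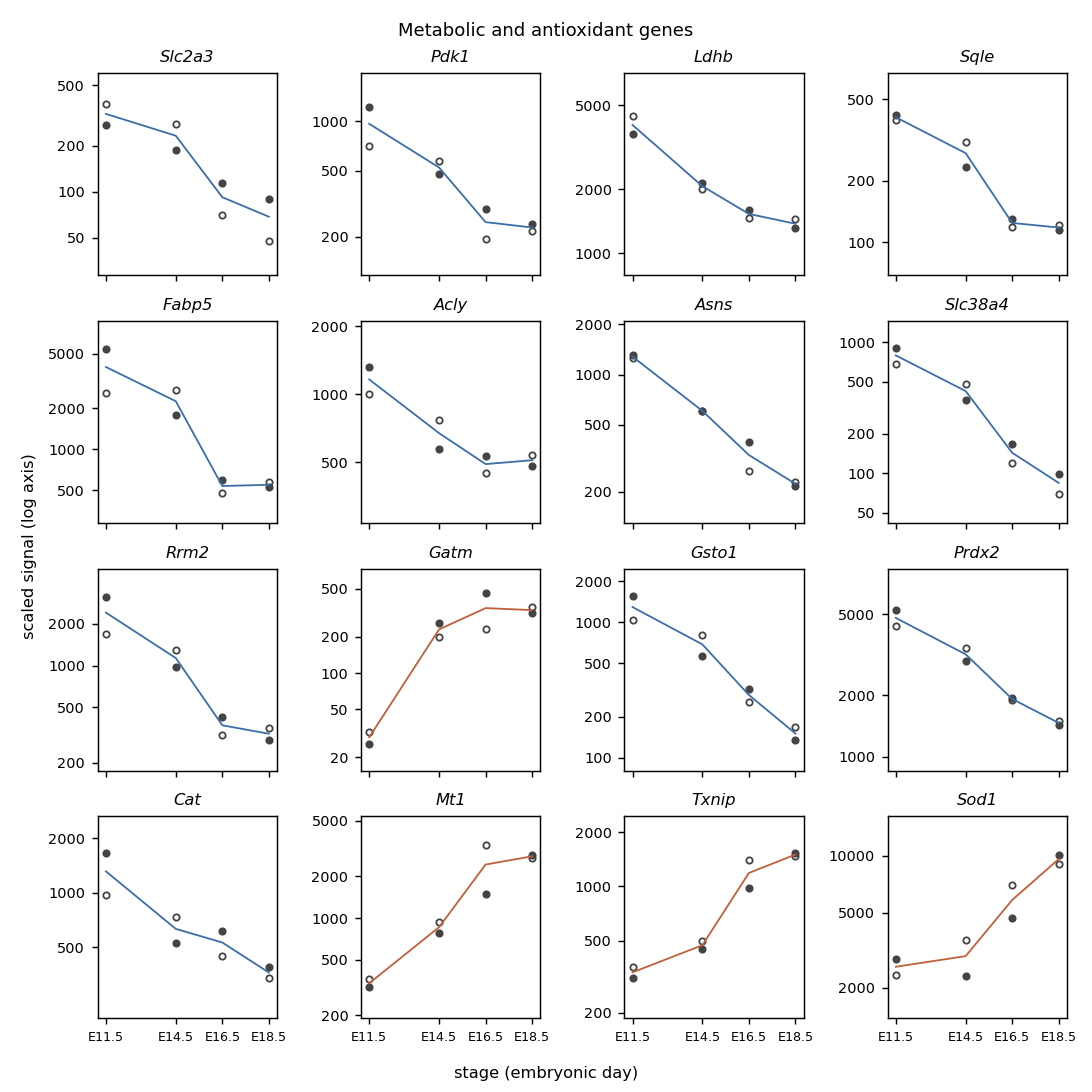
Scaled signal (log axis) by stage of 16 metabolic and antioxidant genes; each circle is 1 array (filled for replicate 1, open for replicate 2) and the line joins the stage means, red-brown for a rise and blue for a fall. Sqle, Fabp5 and Rrm2 take their largest step down between E14.5 and E16.5, where Mt1, Txnip and Sod1 take their largest step up.

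Machinery that makes and handles RNA and protein fell in part. Among splicing factors and RNA-binding proteins 22 of 50 fell and 1 rose, and of the 42 members between 500 and 5000 21 fell, against the 31.3% of all genes there. Srsf2, a serine and arginine rich splicing factor, read 2782 and 2321 at E11.5 and 479 and 529 at E18.5 and fell by 2.30 ± 0.23 (adjusted p = 1.47e-05), and Hnrnpr, a nuclear RNA-binding protein, read 3529 and 2592 at E11.5 and 596 and 704 at E18.5 and fell by 2.20 ± 0.25 (adjusted p = 5.53e-05). Falls numbered 13 without E18.5 replicate 1. The 1 rise, Hnrnpab, was opposed by 4 of its 5 other tested probe sets and lost its call without E11.5 replicate 2 and without either E18.5 array.

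Ribosome assembly factors fell in 20 of 65 cases, 9 of them among the 21 between 500 and 5000, led by Tsr1 at 1.58 ± 0.22 and Ddx18 at 1.26 ± 0.22, but falls numbered 7 without E11.5 replicate 1, 5 without E18.5 replicate 1 and 6 without E18.5 replicate 2. Wdr36, a factor of the small subunit, read 212 and 230.1 at E11.5 and 928 and 902 at E18.5 and rose by 1.98 ± 0.20, 1 of 6 rises. Of the cytosolic ribosomal protein genes 15 of 44 rose and 5 fell with a median of 0.53. These counts were unstable: rises numbered 6 without E11.5 replicate 2, 1 without E18.5 replicate 1 and 2 without E18.5 replicate 2, 7 with quantile normalization, under which 9 fell, and 1 with equal spiked controls, under which 24 fell. Of 36 proteasome genes 10 fell, near the 31.3% of genes of their brightness, and falls numbered 19 without E11.5 replicate 2, 4 without E18.5 replicate 1 and 5 without E18.5 replicate 2.

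Genes of the early gonad fell more often than they rose, and pregranulosa and surface genes rose more often than they fell. Of 22 early gonad genes 12 fell and 0 rose, with 1 rise without E11.5 replicate 1, and the median was -0.90. Emx2, a homeodomain factor needed to form the gonad and kidney, read 1335 and 1236 at E11.5 and 181 and 253 at E18.5 and fell by 2.50 ± 0.22 (adjusted p = 6.67e-06). Tcf21, a factor of the mesenchyme of gonad and kidney, read 3058 and 1920.0 at E11.5 and 461 and 478 at E18.5 and fell by 2.33 ± 0.26 (adjusted p = 4.81e-05). Nr2f1 and Nr2f2, orphan nuclear receptors of mesenchyme, fell by 2.54 ± 0.29 and 1.66 ± 0.20, Nr2f1 having reached 41.1 and 99.5 by E14.5. Gata4, which acts with them, did not pass, at -0.29 ± 0.24.

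Of 35 pregranulosa genes 12 rose and 6 fell. Irx3, a homeodomain factor of pregranulosa cells, read 84.1 and 82.1 at E11.5 and 946 and 940.1 at E18.5 and rose by 3.27 ± 0.20 (adjusted p = 2.99e-07), with most of the rise before E14.5, where it was at 696 and 549. Esr1, the estrogen receptor alpha, read 46.2 and 44.7 at E11.5 and 374 and 376 at E18.5 and rose by 2.67 ± 0.19 (adjusted p = 1.21e-06). Among other receptors of hormones, Nr3c1, the glucocorticoid receptor, read 94.6 and 81.6 at E11.5 and 254 and 227 at E18.5 and rose by 1.30 ± 0.21. Inha, the inhibin alpha subunit, went the other way, from 427 and 557 to 181 and 164, a fall of 1.42 ± 0.21. Among 13 genes of steroid synthesis 3 rose and 3 fell, and Cyp11a1 and Star, the entry to the path, did not pass, at 0.31 ± 0.36 and 0.08 ± 0.25. The 1 other tested probe set of Cyp11a1 and 1 of the 2 others of Star fell, so the direction of both is uncertain. Rises of steroid synthesis genes numbered 0 without E18.5 replicate 1, and falls 1 without E11.5 replicate 1, E11.5 replicate 2 or E18.5 replicate 2.

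The surface epithelium and mesothelium list had the highest share of rises outside the germ cell and liver lists, 12 of 25, with 3 falls and a median of 0.59. Krt19, a keratin of simple epithelia, read 54.1 and 73.3 at E11.5 and 1201 and 1411 at E18.5 and rose by 4.06 ± 0.24 (adjusted p = 1.62e-07), and Krt18, another such keratin, read 489 and 333 at E11.5 and 1252 and 1233 at E18.5 and rose by 1.58 ± 0.22. Lgr5, the R-spondin receptor of the ovarian surface, read 48.1 and 59.3 at E11.5 and 595 and 625 at E18.5 and rose by 3.17 ± 0.21 (adjusted p = 4.24e-07). Upk1b, a uroplakin of mesothelium, rose by 1.65 ± 0.30 and Aldh1a1, a retinal dehydrogenase, by 1.41 ± 0.23, whereas its relative Aldh1a2 read 1103 and 819 at E11.5 and 429.9 and 446 at E18.5 and fell by 1.09 ± 0.21. Cdh1 and Epcam, general epithelial adhesion genes, did not pass, at -0.07 ± 0.31 and 0.59 ± 0.31.

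Among cell junction genes 10 of 29 fell and 4 rose. Cdh11, a mesenchymal cadherin, read 1141 and 1392 at E11.5 and 277 and 262 at E18.5 and fell by 2.16 ± 0.32. The desmosome proteins Dsg2, Dsc2 and Dsp fell by 2.12 ± 0.24, 1.79 ± 0.27 and 1.85 ± 0.34, and Gja1, the gap junction connexin 43, read 3183 and 2605 at E11.5 and 905 and 939 at E18.5 and fell by 1.63 ± 0.23 (adjusted p = 2.62e-04). Esrp1 and Grhl2, a splicing regulator and a transcription factor of epithelia, rose by 2.65 ± 0.39 and 2.06 ± 0.26, and Esrp1 did so late, with 8.65 and 61.8 at E16.5 and 560.0 and 592 at E18.5. Rises numbered 1 without E18.5 replicate 1 and 2 without E18.5 replicate 2.

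Extracellular matrix genes changed in both directions. In glycoproteins and proteoglycans 15 of 62 rose and 15 fell, both shares above the background, and both counts were 9 without E18.5 replicate 2. Rises were led by Mgp, a calcification inhibitor, which read 62.7 and 37.2 at E11.5 and 617 and 564 at E18.5 and rose by 3.23 ± 0.27 (adjusted p = 4.01e-06). Eln, the elastin of elastic fibres, read 91.3 and 89.6 at E11.5 and 650.5 and 717 at E18.5 and rose by 2.71 ± 0.22 (adjusted p = 2.55e-06). Ltbp4 and Ltbp3, which store latent TGF-beta in the matrix, rose by 2.31 ± 0.20 and 1.93 ± 0.25, whereas Ltbp1 of the same family read 517 and 498 at E11.5 and 109 and 106 at E18.5 and fell by 2.08 ± 0.20 (adjusted p = 1.22e-05). The arrays of the stages did not overlap in these 5 genes, nor in 68.1% of all genes tested.

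Proteoglycans too went both ways. Vcan, a large hyaluronan-binding proteoglycan, read 293 and 394 at E11.5 and 57.7 and 71.1 at E18.5 and fell by 2.15 ± 0.28. Gpc6, a membrane-anchored glypican, read 367 and 419 at E11.5 and 55.5 and 89.5 at E18.5 and fell by 2.23 ± 0.26. Gpc3 of the same family read 2237 and 3692 at E11.5 and 891 and 997 at E18.5 and fell by 1.59 ± 0.23. In all 3 genes both E11.5 arrays were higher, and arrays of the stages did not overlap in 68.1% of all genes tested. Dcn, a small leucine-rich proteoglycan that binds collagen, read 504 and 370.4 at E11.5 and 1188 and 1203 at E18.5 and rose by 1.43 ± 0.21 (adjusted p = 2.73e-04).

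Of 33 collagen genes 7 rose and 2 fell. Of the 4 collagen VI chains tested 3 rose: Col6a2 read 214 and 211 at E11.5 and 1022 and 1046 at E18.5 and rose by 2.20 ± 0.18 (adjusted p = 2.95e-06), Col6a1 by 1.61 ± 0.24 and Col6a3 by 1.25 ± 0.25. All 3 were higher at E16.5 than at E18.5, Col6a2 at 1439 and 1456, and Col6a4 did not pass, at 0.17 ± 0.48. Col1a1 read 287 and 264 at E11.5 and 1151 and 712 at E18.5 and rose by 1.66 ± 0.22, while Col1a2, its partner chain, did not pass, at 0.19 ± 0.24. The basement membrane chains Col4a1 and Col4a2 did not pass either, at 0.28 ± 0.21 and 0.50 ± 0.21, and falls of collagen genes numbered 1 without E11.5 replicate 1 and 0 without E11.5 replicate 2 or E18.5 replicate 1.

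Enzymes that process the matrix did the same. Htra1, a secreted serine protease, read 113 and 73.4 at E11.5 and 872 and 810.1 at E18.5 and rose by 2.99 ± 0.28 (adjusted p = 9.73e-06), and Lox, which crosslinks collagen and elastin, rose by 1.35 ± 0.24. Pcolce, an enhancer of procollagen cleavage, read 1668 and 1321 at E11.5 and 302 and 275 at E18.5 and fell by 2.30 ± 0.26 (adjusted p = 5.02e-05), and Serpinh1, the collagen chaperone, read 2894 and 3062 at E11.5 and 1227 and 1221 at E18.5 and fell by 1.27 ± 0.20. In all 6 of 32 rose and 7 fell, with rises numbering 3 without E18.5 replicate 2 and falls 3 without E11.5 replicate 2 and 4 without E18.5 replicate 1 or E18.5 replicate 2. Among 32 stroma genes, Mgp and Dcn included, 6 rose and 10 fell, and the platelet-derived growth factor receptors Pdgfra and Pdgfrb fell by 1.17 ± 0.23 and 1.37 ± 0.29. The adjusted p of Pdgfra, 0.00243, became 0.158 with the mean over its probe sets. For stroma, rises numbered 3 without E11.5 replicate 2 or E18.5 replicate 2 and falls 5 without E11.5 replicate 1.

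**Figure D5:**
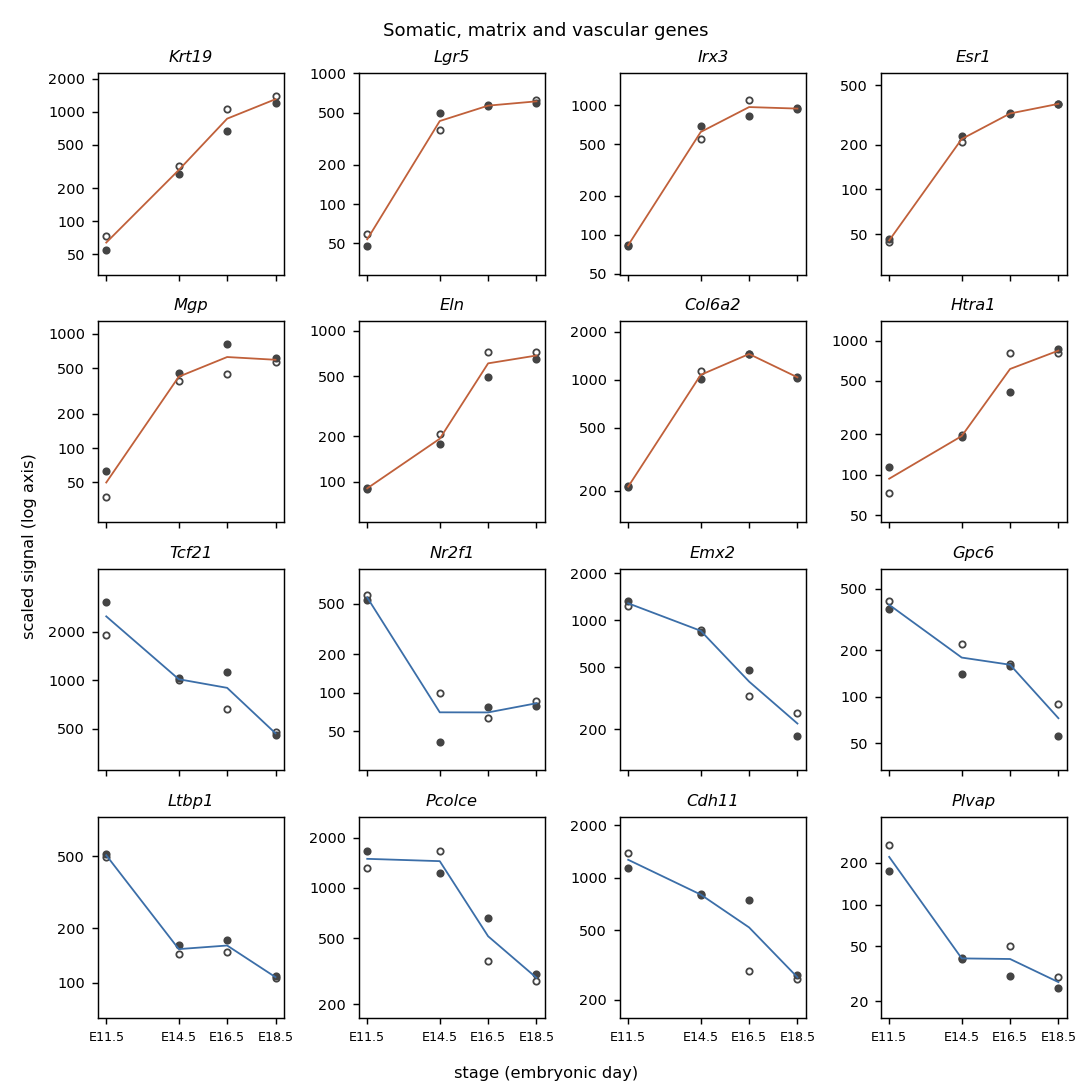
Scaled signal (log axis) by stage of 16 somatic, matrix and vascular genes; each circle is 1 array (filled for replicate 1, open for replicate 2) and the line joins the stage means, red-brown for a rise and blue for a fall. The upper 8 genes rise, most of them by E16.5, and the lower 8 fall, Nr2f1, Ltbp1 and Plvap mostly before E14.5.

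Transcription factors that lay out the embryo, outside the Hox clusters, fell in 24 of 99 cases and rose in 16. Foxc1, a forkhead factor of mesenchyme and vessels, read 304 and 261 at E11.5 and 33.7 and 25.4 at E18.5 and fell by 2.71 ± 0.28 (adjusted p = 2.22e-05). Snai2, a repressor of epithelial genes, read 2509.9 and 1400.5 at E11.5 and 348 and 476 at E18.5 and fell by 2.16 ± 0.26 (adjusted p = 7.29e-05), and Pbx2, a partner of Hox and Meis proteins, read 736 and 936 at E11.5 and 203 and 151 at E18.5 and fell by 2.14 ± 0.21. The largest rise was that of Lhx8, a factor of oocytes, and Irx3 of the pregranulosa came next. Rises numbered 8 without E11.5 replicate 2, 5 without E18.5 replicate 1 and 7 without E18.5 replicate 2.

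In retinoid handling, Crabp2, a cytosolic carrier of retinoic acid, read 560.0 and 345 at E11.5 and 69.7 and 101 at E18.5 and fell by 2.19 ± 0.26 (adjusted p = 6.55e-05). With it 6 of 23 retinoid genes fell and 3 rose, and Aldh1a1 and Aldh1a2, given above, stood on opposite sides. Falls numbered 3 without E11.5 replicate 1 or E18.5 replicate 1 and 2 without E18.5 replicate 2. Of 56 guidance genes, which steer cells and axons, 12 fell and 4 rose. Sema3c, a secreted semaphorin, read 709 and 690.1 at E11.5 and 229 and 236 at E18.5 and fell by 1.53 ± 0.21 (adjusted p = 2.00e-04), while Efna1, an ephrin ligand, read 73.6 and 53.9 at E11.5 and 266 and 347 at E18.5 and rose by 2.01 ± 0.26 (adjusted p = 1.37e-04). Guidance genes that rose numbered 2 without E11.5 replicate 1 or E18.5 replicate 2.

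In signalling pathways single genes passed the test in both directions. In the Wnt list 9 of 47 rose and 10 fell, with rises numbering 5 without E11.5 replicate 1 or E18.5 replicate 2, 4 without E11.5 replicate 2 and 3 without E18.5 replicate 1 and falls 6 without E11.5 replicate 1. Feedback targets of the canonical path rose, Axin2 from 142 and 197 to 471 and 513, 1.47 ± 0.24, and Apcdd1 from 97.2 and 72.9 to 354 and 472, 2.08 ± 0.22. The ligand Wnt4 and Rspo1, which amplifies it, did not pass, at -0.03 ± 0.22 and -0.03 ± 0.20, and Lgr4, the relative of Lgr5, read 4065 and 3175 at E11.5 and 1309.9 and 1429 at E18.5 and fell by 1.38 ± 0.22 (adjusted p = 5.41e-04).

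Some feedback genes of fibroblast growth factor signalling fell. Dusp6, a phosphatase that turns off ERK, read 414 and 495 at E11.5 and 44.5 and 46.0 at E18.5 and fell by 2.94 ± 0.23 (adjusted p = 2.60e-06), and Etv5, a transcription factor induced by the path, read 185 and 232 at E11.5 and 15.2 and 25.4 at E18.5, at least 8.42-fold lower (adjusted p = 2.71e-05). Spry1, Spry2 and Spry4, other feedback inhibitors, did not pass, at -0.37 ± 0.25, -0.23 ± 0.24 and 0.68 ± 0.37. Met, the receptor of hepatocyte growth factor, read 17.0 and 9.85 at E11.5 and 227 and 233 at E18.5 and was at least 10.2-fold higher (adjusted p = 3.52e-06). Of 45 members 4 rose and 10 fell, and rises numbered 2 without E11.5 replicate 2, E18.5 replicate 1 or E18.5 replicate 2.

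In the TGF-beta, BMP and activin list 7 of 54 rose and 13 fell. The ligands Bmp4 and Bmp5 and the type I receptor Acvr1 fell by 1.29 ± 0.25, 2.00 ± 0.37 and 1.73 ± 0.26, and so did the inhibitory Smad6, by 1.60 ± 0.26, while their target Id1 rose as given above. Rises numbered 4 without E11.5 replicate 2 or E18.5 replicate 2 and falls 8 without E18.5 replicate 1. In the Notch list 5 of 27 rose and 2 fell: the ligand Jag2 read 38.3 and 28.5 at E11.5 and 267 and 263 at E18.5 and rose by 2.51 ± 0.24, and the target Hes1 read 165 and 200.1 at E11.5 and 566 and 625 at E18.5 and rose by 1.62 ± 0.20 (adjusted p = 7.45e-05). Rises in it numbered 3 without E11.5 replicate 2 or E18.5 replicate 2, and falls 0 without E18.5 replicate 1 and 1 without E18.5 replicate 2.

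Endothelial genes fell more often than they rose. Of 36 endothelial genes 14 fell and 2 rose, with a median of -0.62. Aplnr, the apelin receptor of growing vessels, read 1084 and 927 at E11.5 and 85.4 and 65.1 at E18.5 and fell by 3.49 ± 0.28 (adjusted p = 2.43e-06), and Plvap, of fenestrated endothelium, read 174 and 269 at E11.5 and 25.2 and 30.0 at E18.5 and fell by 2.42 ± 0.31. Of the general endothelial genes, Cdh5, Cldn5 and Tek fell, by 1.16 ± 0.32, 0.93 ± 0.25 and 1.02 ± 0.33, and Kdr, Eng and Pecam1 did not pass, at 0.02 ± 0.32, -0.19 ± 0.36 and -0.63 ± 0.30. Cdh5 lost its call without E11.5 replicate 2 and without E18.5 replicate 2, Cldn5 without either E11.5 array and without E18.5 replicate 2, and Tek without any 1 of the 4 arrays. Falls numbered 6 without E11.5 replicate 2, 8 without E18.5 replicate 1 and 9 without E18.5 replicate 2, and rises 1 without E11.5 replicate 1 or E11.5 replicate 2 and 0 without E18.5 replicate 1. Of the globins, Hbb-b2 of definitive red cells read 79.3 and 62.2 at E11.5 and 871 and 908 at E18.5. All 3 embryonic globins tested fell, Hba-x and Hbb-bh1 mostly before E14.5 and Hbb-y after it. Hba-x read 6610.5 and 5022.5 at E11.5, 706 and 898 at E14.5 and 36.0 and 32.6 at E18.5. Hbb-bh1 read 8403 and 4928 at E11.5, 356 and 296 at E14.5 and 53.4 and 38.8 at E18.5. Hbb-y read 13552 and 11325 at E11.5 and 722 and 782 at E18.5, with 10609 and 12333 at E14.5 and 943 and 478 at E16.5.

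Complement and interferon response genes rose in 12 of 32 cases and fell in 6. Cd55, which protects cells from complement, read 76.2 and 92.1 at E11.5 and 719 and 674 at E18.5 with 106 and 33.2 at E16.5, a late rise of 2.83 ± 0.34 (adjusted p = 7.25e-05). Clu, a secreted chaperone that also inhibits complement, read 149 and 162 at E11.5 and 908 and 986 at E18.5 and rose by 2.49 ± 0.21, and the interferon-induced Igtp and Ifi27 rose by 2.29 ± 0.27 and 2.20 ± 0.23. Gbp2, another interferon-induced protein, read 956 and 769.6 at E11.5 and 130.4 and 115 at E18.5 and fell by 2.66 ± 0.23 (adjusted p = 5.60e-06). Rises numbered 7 without E18.5 replicate 1 and 6 without E18.5 replicate 2, and falls 2 without E18.5 replicate 1 and 3 without E18.5 replicate 2.

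Antigen presentation and resident blood cells gave a mixed picture. H2-D1, a class I histocompatibility molecule, read 84.7 and 52.9 at E11.5 and 397 and 394 at E18.5 with 819.6 and 1129 at E16.5, and rose by 2.31 ± 0.23 (adjusted p = 1.58e-05). Psme1, a subunit of the proteasome activator of that path, read 1220.1 and 1122 at E11.5 and 525 and 551 at E18.5 and fell by 1.10 ± 0.19 (adjusted p = 0.001). Of 11 class I genes 5 rose and 2 fell, with rises numbering 3 without E11.5 replicate 1, E11.5 replicate 2 or E18.5 replicate 2 and 2 without E18.5 replicate 1 and falls 1 without E11.5 replicate 2, E18.5 replicate 1 or E18.5 replicate 2. Class I genes are near-identical in places, so a probe set may read several of them.

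Of 34 macrophage and leukocyte genes 7 rose and 4 fell. S100a9, a calcium-binding protein of neutrophils, read 66.2 and 44.3 at E11.5 and 350.5 and 395 at E18.5 and rose by 2.46 ± 0.27, and Cpa3, a protease of mast cells, rose by 2.15 ± 0.30. Pf4, a chemokine of platelets and of embryonic macrophages, read 528 and 523 at E11.5 and 139 and 117 at E18.5 and fell by 1.92 ± 0.22 (adjusted p = 5.32e-05). Falls numbered 1 without E11.5 replicate 1 and 2 without E18.5 replicate 1.

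Of the lists of other organs that follow, that of the liver stood furthest from the background. Of 23 liver-type plasma protein genes 15 rose and 0 fell, and their summed signal was 866 and 841 on the E11.5 arrays against 5897 and 6176 on the E18.5 arrays. Afp read 8.15 and 12.3 at E11.5 and 585 and 615 at E18.5, at least 26.7-fold higher, with 866 and 2295 at E14.5 and 215 and 211 at E16.5. Of 14 exocrine pancreas genes 2 rose and 3 fell, and Cpa1, a pancreatic carboxypeptidase, read 518 and 797 at E11.5 and 2.87 and 8.96 at E18.5, at least 26.1-fold lower. The summed signal of the pancreas list was 1532 and 2112 on the E11.5 arrays against 754 and 727 on the E18.5 arrays. At E11.5 it rested mostly on Cpa1 and on Pnliprp2, which read 482 and 663, and the median member had a mean signal of 51.9. Of 27 genes of mesonephros, kidney and ducts 3 rose, Cited1, Sall1 and Krt8, and 3 fell, Emx2, Wt1 and Cdh6. The summed signal was 8639 and 8778 on the E11.5 arrays against 8219 and 8798 on the E18.5 arrays. That sum rests on a few bright genes. On E11.5 replicate 1 Podxl and Amhr2 read 1931 and 1894, and Wt1 and Emx2, also genes of the gonad, 1842 and 1335. On E18.5 replicate 1 Amhr2 and Podxl read 2743 and 2276 and Emx2 181. The median member had a mean signal of 62.2. The sum is therefore no measure of kidney tissue. Of 31 genes of neurons and neural crest 2 rose and 6 fell, and of 19 of skeletal muscle 3 and 2. The shares that rose and fell were 14.3% and 21.4% for pancreas, 11.1% and 11.1% for kidney, 6.45% and 19.4% for neurons and 15.8% and 10.5% for muscle. Over all genes tested they were 13.7% and 16.4%. The part of these tissues in the results above was not tested. In the pancreas list 0 genes rose without E18.5 replicate 1, and in the skeletal muscle list 0 rose without that array. Neuron genes that fell numbered 2 without E11.5 replicate 1 and 3 without E18.5 replicate 2.

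Among the 20 largest rises and 20 largest falls outside the germ cell lists, several have no list above. Bzw2 had the largest rise, 7.74 ± 0.20, but its other tested probe set fell, so it is uncertain. Cst12, a cystatin of the protease inhibitor family, read 60.2 and 33.4 at E11.5 and 2382 and 2422 at E18.5 and rose by 5.30 ± 0.26 (adjusted p = 4.15e-08). Sorbs2, an adaptor of the actin cytoskeleton, read 36.7 and 43.8 at E11.5 and 545 and 539.7 at E18.5 and rose by 3.31 ± 0.19 (adjusted p = 1.23e-07), and all 4 of its values at E14.5 and E16.5 were between 415 and 651. Pls3, an actin-bundling plastin, read 3435 and 2563 at E11.5 and 144 and 139 at E18.5 and fell by 4.25 ± 0.24 (adjusted p = 1.23e-07). Klhl4, a kelch-like protein, read 593 and 444 at E11.5 and 1.19 and 30.5 at E18.5 and fell by 4.23 ± 0.39, Lor, the loricrin of cornified epithelium, by 3.62 ± 0.30, and Myl7, an atrial myosin light chain, by 3.84 ± 0.43. Robo1, a receptor of Slit ligands, fell by 3.47 ± 0.31 on its brighter probe set while its other one rose, so its direction is uncertain too.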

How the data were processed

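RNA of whole ovaries was measured on 10 oligonucleotide arrays, 2 per stage. The authors deposited 1 linear signal intensity per probe set and array, per the file headers, and the software that made it is not given in the sources used here; every array had a 2% trimmed mean of about 125. Python 3.11.15 and limma 3.58.1 in R 4.3.3 were used. Signals were multiplied so that all arrays shared 1 value at their 75th percentile, 16 was added and log2 taken. Probe sets at or above the array's median on at least 2 of 8 arrays were fitted with 1 mean per stage (lmFit, eBayes with an intensity trend) and p-values adjusted by Benjamini-Hochberg. The E12.5 arrays were left out because replicate 2 was known to stand apart: its log2 signals correlated with those of the 8 arrays fitted, across probe sets, at 0.437 or less. Replicate 1 correlated with them at 0.873 to 0.933 and had an Actb 3' to 5' ratio of 10.6. Adding 1 or both is an alternative. Of 45037 probe sets 34945 had 1 symbol in the platform annotation. Sequences came from the RefSeq promoter table. The fit was tested on simulated data. Named genes were the 20 largest rises and 20 largest falls outside the germ cell lists. Their brighter stage had a mean signal of at least 200, and their E11.5 and E18.5 arrays were required not to overlap. Per list, up to 6 called members by size of change and 2 by signal were named as well. Other genes were named after their values were seen. The comparison and the gene lists were chosen with earlier results of these data known.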

Additional observations from a re-analysis of the deposited data

How the results depend on the processing

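The probe sets called numbered 302 with all 10 arrays, 16292 with equal spiked controls and 3704 to 7283 with 1 array left out at a time, against 7218. Genes that rose numbered 132 with 10 arrays, 1159 with a common median, 256 with equal spiked controls and 889 to 1831 with 1 array left out, and genes that fell 62 with 10 arrays, 8294 with equal spiked controls and 1218 to 2200 with 1 array left out. All 302 probe sets called with 10 arrays were among the 7218. With E12.5 replicate 1 alone added (9 arrays), 7214 were called, 7130 of them among the 7218, so the low count with 10 arrays came with E12.5 replicate 2. With the replicate number as a block 6981 probe sets were called. Deviations of same-numbered arrays correlated between -0.07 and 0.04, so no pairing by number was seen across the probe sets as a whole. A pairing that acts on only some probe sets was not tested. No call is read from the block. Of the 367 genes that the naming rule picks, the calls lost were 286 with 10 arrays, 3 with 9 arrays, 8 with the values as deposited, 24 with quantile normalization, 16 with a common median, 70 of the 359 still tested without E18.5 replicate 1, 55 of 360 without E18.5 replicate 2 and 51 with equal spiked controls, under which 25 of 365 turned. The cause was not tested. The signs that turned among the genes given above follow, and of these genes Abca1, Fst, Hnrnpab, Hsd3b1 and Shmt1 had passed the test. With equal spiked controls the changes were -0.35 for Abca1, -0.80 for Actb, -0.998 for Col1a2, -0.90 for Col4a1, -0.65 for Col4a2, -0.52 for Col6a4, -0.52 for Cyp11a1, -0.81 for Dnmt3a, -0.52 for Epcam, -0.49 for Fdft1, -0.24 for Fst, -1.13 for Gpx4, -0.14 for Hnrnpab, -0.57 for Hoxa5, -0.033 for Hsd3b1, -0.93 for Id3, -1.09 for Igf1, -0.94 for Igf1r, -1.13 for Igfbp3, -1.10 for Igfbp4, -1.07 for Kdr, -0.91 for Phgdh, -0.78 for Prdx3, -0.26 for Spry4, -0.95 for Star, -0.71 for Suz12. With the values as deposited the changes were 0.066 for Aldoa, 0.044 for Cdh1, 0.13 for Igfbp5, 0.10 for Rspo1, 0.099 for Wnt4. With quantile normalization the changes were 0.19 for Aldoa, -0.0050 for Col6a4, 0.0029 for Hmgcs1, 0.32 for Igfbp5, 0.079 for Ldha, 0.13 for Rspo1, 0.16 for Wnt4, 0.085 for Yap1. With the mean over the probe sets of a gene the changes were 0.095 for Aldoa, -1.11 for Cyp11a1, -0.21 for Dnmt3a, -0.040 for Gpx4, -0.66 for Hnrnpab, -0.75 for Hoxa5, -0.26 for Igf1, -0.30 for Igfbp4, 0.021 for Igfbp5, -0.12 for Phgdh, -0.64 for Shmt1, -0.43 for Star, -0.028 for Suz12. With a common median the changes were -0.053 for Col1a2, -0.18 for Gpx4, -0.17 for Igf1, -0.040 for Igf1r, -0.20 for Igfbp3, -0.14 for Igfbp4, -0.21 for Kdr, -0.13 for Star. Leaving out 1 array at a time, their changes ran from -0.28 to 0.14 for Aldoa, -0.23 to 0.085 for Cdh1, -0.057 to 0.43 for Col1a2, -0.64 to 0.98 for Col6a4, -0.48 to 0.096 for Eng, -0.67 to 0.10 for Gata4, -0.26 to 0.39 for Gpx4, -0.012 to 0.53 for Id3, -0.077 to 0.22 for Igf1, -0.045 to 0.43 for Igf1r, -0.47 to 0.54 for Igfbp3, -0.016 to 0.22 for Igfbp4, -0.21 to 0.20 for Igfbp5, -0.19 to 0.22 for Kdr, -0.013 to 0.55 for Phgdh, -0.17 to 0.10 for Rspo1, -0.0019 to 0.16 for Star, -0.36 to 0.29 for Wnt4. Signal near that of unspiked controls limits the dim genes to bounds.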
